A study of Mus musculus with 2 samples.

Results

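The genes Cd3e, Cd3d, Cd3g and Cd247 encode the chains that carry the signal of the T cell receptor, and their open chromatin was described in mouse regulatory T cells profiled by ATAC-seq, which maps accessible DNA by where the Tn5 transposase inserts. The members were the peaks with a summit inside the annotated body of a listed gene or 50 kb on either side, with the cluster of Cd3g, Cd3d and Cd3e taken as 1 stretch. Of the 34610 peaks in the list that passed an irreproducible discovery rate (IDR) threshold, 30 were members, 14 around the cluster and 16 around Cd247. Of the 58871 peaks in the longer pseudoreplicated list, 48 were members, 18 and 30. The cells were regulatory T cells, primary cells of male mice of the strain Foxp3CreERT2 x Rosa26YFP, adult at 4 months; whether animals were pooled is not stated, and the labels trace them to a haematopoietic cell of the bone marrow. By its name the strain carries CreERT2, a Cre that tamoxifen activates, at Foxp3, and a fluorescent reporter at Rosa26; no control strain or other cell type is among the samples used here. Both libraries were technical replicates of 1 biological replicate and entered the same pooled peak lists, so no value below has a replicate error and no comparison between groups was possible.

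The T cell receptor recognises antigen through chains with almost no cytoplasmic part, and it signals through the CD3 epsilon, delta and gamma chains and the zeta chain encoded by Cd247. The epsilon chain pairs with delta or gamma, while zeta pairs with itself. Their cytoplasmic tails hold tyrosine motifs that the kinase Lck phosphorylates and to which the kinase ZAP-70 then binds. In regulatory T cells, as in other T cells, the complex is needed for the receptor to reach the surface.

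The signal of a peak is the authors' own enrichment value, whose background is not stated, and the −log10 p is theirs too. Both are used here only to describe and order peaks within a list. The lists give no counts, so sequencing depth is unknown. Of 8 marker genes of regulatory T cells, 3 of which are CD3 genes themselves, all had a promoter peak, one within 1 kb of an annotated transcription start site (TSS). The others were Foxp3, Il2ra, Ctla4, Ikzf2 and Cd4, and the Foxp3 peak also lies beside starts of Flicr and Ppp1r3f. Promoter peaks were found at 0 of 4 B cell, 0 of 3 NK cell, 0 of 3 erythroid, 1 of 4 myeloid (Cd14) and 1 of 2 CD8 T cell markers (Cd8b1, whose peak lies within 1 kb of a start of Smyd1). These counts are of the thresholded list, where 52.6% of protein-coding genes had a promoter peak. The pseudoreplicated list, where 57.7% had one, added weak ones at the NK marker Klrb1c (signal 3.13) and the B cell marker Cd79b (4.59). The part of other cells in the peaks below was not tested.

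The promoter sequences are shown first because the peaks at the starts of the members differ in strength. Each line gives the 250 bases before the start of the gene in RefSeq on GRCm38.p6, which is the assembly mm10 of the peak lists, and all 4 genes were found in that table. The windows are chr9:44980432-44980681 on the minus strand for Cd3g, chr9:44981536-44981785 on the plus strand for Cd3d, chr9:45009612-45009861 on the minus strand for Cd3e and chr1:165788431-165788680 on the plus strand for Cd247. Capitals mark exact matches to the motifs searched.
Cd3g: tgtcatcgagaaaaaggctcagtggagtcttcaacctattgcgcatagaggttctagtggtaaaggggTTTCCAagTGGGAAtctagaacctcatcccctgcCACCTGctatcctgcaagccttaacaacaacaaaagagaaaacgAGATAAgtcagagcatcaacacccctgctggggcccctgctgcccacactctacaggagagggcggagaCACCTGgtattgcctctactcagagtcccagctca
Cd3d: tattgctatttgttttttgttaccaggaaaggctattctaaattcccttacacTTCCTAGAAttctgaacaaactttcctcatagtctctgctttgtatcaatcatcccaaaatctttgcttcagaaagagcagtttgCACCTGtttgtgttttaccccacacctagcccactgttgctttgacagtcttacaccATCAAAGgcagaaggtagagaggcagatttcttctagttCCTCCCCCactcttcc
Cd3e: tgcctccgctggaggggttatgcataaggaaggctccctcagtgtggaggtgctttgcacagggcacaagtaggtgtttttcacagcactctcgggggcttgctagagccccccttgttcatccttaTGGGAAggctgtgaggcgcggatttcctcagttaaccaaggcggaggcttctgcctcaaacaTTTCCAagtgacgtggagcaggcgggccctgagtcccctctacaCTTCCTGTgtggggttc
Cd247: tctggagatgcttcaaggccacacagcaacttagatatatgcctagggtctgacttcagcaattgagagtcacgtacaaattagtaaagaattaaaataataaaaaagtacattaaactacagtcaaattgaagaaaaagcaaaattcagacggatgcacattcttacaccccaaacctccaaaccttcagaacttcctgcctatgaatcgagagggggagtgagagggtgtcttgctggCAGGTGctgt

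All 4 promoters had a lower observed over expected CpG ratio than the middle promoter of the genome, Cd3e by little. The ratio was 0.242 for Cd3g, 0 for Cd3d, 0.344 for Cd3e and 0.283 for Cd247. The median was 0.373 over 32851 RefSeq promoters of the same length. The thresholded peak covered all 250 bases at Cd3g and Cd3e, 160 bases at Cd247 and 136 bases at Cd3d. Positions are counted from −1, the last base before the start, and give the base of a match nearest the 5′ side. Cd3g held the E protein motif (CAGGTG or CAGCTG) at −148 and −35, NFAT (TGGAAA) at −182, and Ikaros (TGGGAA) at −174. It also held the motif of the GATA family, AGATAA or TGATAA, at −104. Cd3d held an E protein motif at −112, TCF/LEF (CTTTGAA or CTTTGAT) at −55, STAT (TTCNNNGAA) at −197 and KLF/SP (CCNCNCCC) at −16. Cd3e held the ETS motif (CCGGAAG or ACAGGAAG) at −17, NFAT at −61 and Ikaros at −123, and Cd247 held a single E protein motif, at −10. Of all RefSeq promoters, 27.7% held the E protein motif, 18.6% NFAT, 21.6% Ikaros, 16.6% GATA, 7.48% TCF/LEF, 7.02% STAT, 45.9% KLF/SP and 9.58% ETS. No member promoter held RUNX (TGTGGT or TGCGGT, in 18.6% of promoters) or the TATA box TATAAA (12.4%). A match is a description of letters, not of a bound factor.

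All 4 members had a promoter peak in the thresholded list, against 52.6% of the 21938 protein-coding genes, and all 4 had one in the pseudoreplicated list, against 57.7%. All 4 also had one within 1 kb of the 5′ end of the gene, against 48.6%. The order of signal at the 5′ end was Cd3g, Cd3e, Cd247 and Cd3d, and no error is available to separate neighbours in that order. Cd3g, which encodes the gamma chain on chromosome 9 (44969572 to 44980431, minus strand), had a peak at 44980277 to 44980700 with a signal of 17.2 and a −log10 p of 316. Its summit lay 32 bp before the start. Cd3e, which encodes the epsilon chain (44998740 to 45009627, minus strand), had a peak at 45009115 to 45010165 with a signal of 15.4 and a −log10 p of 328. Cd247 on chromosome 1 (165788681 to 165877277, plus strand) had a peak at 165788521 to 165788953 with a signal of 11.4 and a −log10 p of 231, and its summit lay 4 bp before the 5′ end. Cd3d, which encodes the delta chain (44981786 to 44987339, plus strand), had the weakest, at 44981650 to 44981896, with a signal of 4.14 and a −log10 p of 52.9. In the 2 inputs of the IDR procedure that peak had −log10 p values of 33.6 and 20.8, against 154 and 162 for the peak at Cd3g.

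Against other open 5′ ends, the members were not strong. Of the 10668 protein-coding genes with a peak there, 49.8% had a lower signal than Cd3g, 38.6% than Cd3e, 17.9% than Cd247 and 0.394% than Cd3d. By −log10 p, the shares below were 48.2% for Cd3g, 50.2% for Cd3e, 35.3% for Cd247 and 4.46% for Cd3d. Cd3g and Cd3e therefore stood near the middle of open genes on −log10 p and Cd3d near the bottom on both scales.

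**Figure D1:**
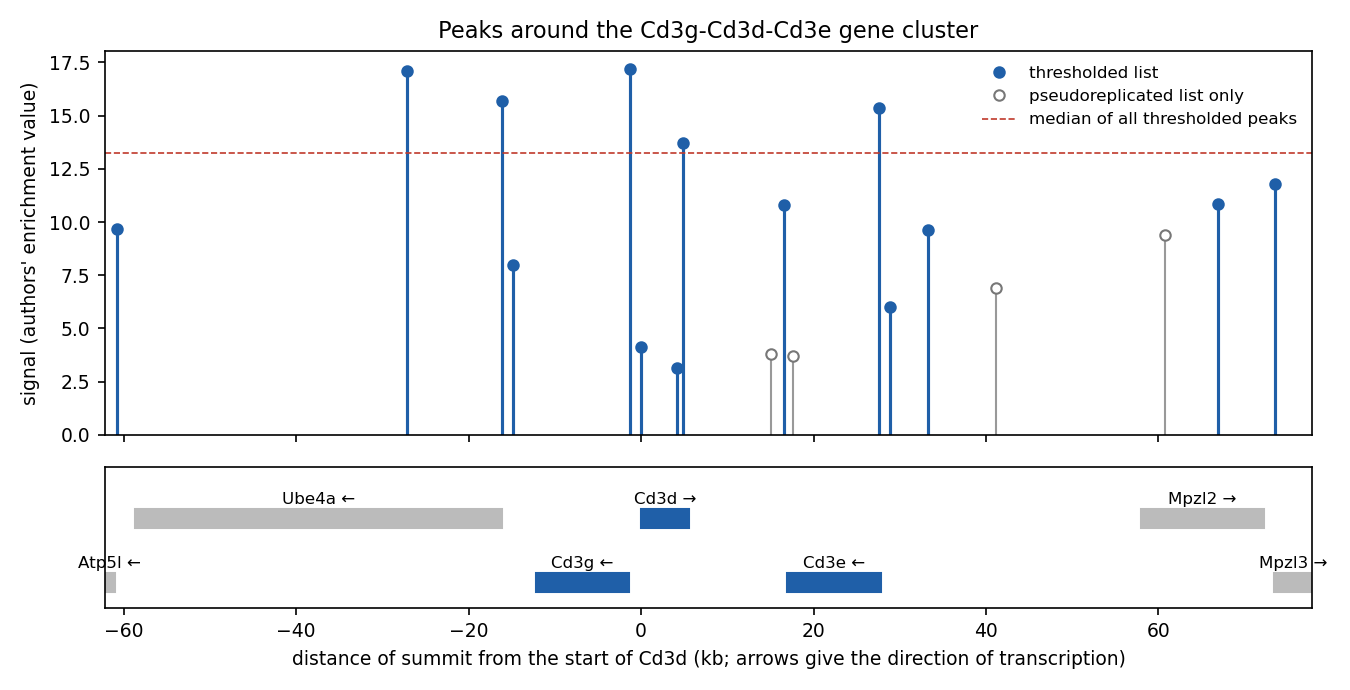
Signal of each peak (vertical axis, the authors' enrichment value) against the distance of its summit from the start of Cd3d in kb, with gene bodies below. Filled points are thresholded peaks and open points those of the pseudoreplicated list only. The peaks at the start of Cd3g (17.2), in the last exon of Cd3d (13.7) and at the start of Cd3e (15.4) stand above the median of all thresholded peaks (13.2), and the peak at the start of Cd3d (4.14) stands below it.

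Cd3g and Cd3d are transcribed away from each other from starts 1355 bp apart, and the 2 starts had separate peaks of unequal strength. Neither list held a summit inside Cd3g, a gene of 10.9 kb. Inside Cd3d, which spans 5.55 kb, 2 thresholded peaks lay toward the 3′ end. The stronger peak, at 44986175 to 44987400, had a signal of 13.7 and a −log10 p of 401, the highest −log10 p of the 14 peaks around the cluster. Its summit fell in exon 5 of Cd3d, 308 bp after the end of the coding sequence and 690 bp before the end of the gene, in the 3′ untranslated part. The peak spanned 1226 bp and had 3 summits. Its summit lay 4.86 kb from the start of the gene, where the signal was 4.14, so the strongest peak of Cd3d as called was the one near its 3′ end. Shorter annotated transcripts of Cd3d begin within 1 kb of that peak. With every annotated TSS allowed, as in the promoter peaks counted here, it is the promoter peak of Cd3d with the highest signal. A weaker peak in intron 3 (44985629 to 44986047) had a signal of 3.12 and a −log10 p of 27.1. Its strongest summit lay 16 bp before an annotated internal start of Cd3d.

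Short sites beside the summit in exon 5 are shown because they hold ETS and RUNX matches, of which the promoter of Cd3d held none. The 200 bp centred on the summit held 1 ETS, 2 RUNX and 1 NFAT match. The RUNX pair lies at chr9:44986676-44986700 and the ETS match at chr9:44986650-44986666 with 5 bases on either side, both on the plus strand of GRCm38, with the motif in capitals.
RUNX pair: ACCACAgcccaaagcaggcTGTGGT
ETS: aacaaCTTCCGGgattt

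Between Cd3d and Cd3e, in a gap of 11.4 kb, 1 thresholded peak lay close to the 3′ end of Cd3e. It ran from 44998136 to 44998550 and had a signal of 10.8 and a −log10 p of 55.9. Its window held 3 RUNX matches and 1 E protein match, the most RUNX matches of the 30 windows. On the other side of Cd3e, the gene's own promoter peak had 4 summits, and the strongest fell in exon 2, 272 bp inside the 5′ end and within 8 bp of an annotated start of the gene Gm48720. A second summit of that peak, 13 bp before an annotated start of Cd3e, had a signal of 10.3 and a −log10 p of 175. Upstream of Cd3e, the signal was 6.01 at −1.09 kb (45010382 to 45010841) and 9.64 at −5.49 kb (45014963 to 45015293). The window of the peak at −5.49 kb held STAT, GATA, E protein and NFAT matches, 1 of each. The pseudoreplicated list added 2 weak peaks at the 3′ side of Cd3e, 1 in exon 8 (44999222 to 44999594, signal 3.71) and 1 in the gap before it (44996687 to 44996933, signal 3.78). It also added 1 upstream of Cd3e at −13.4 kb (45022860 to 45023215, signal 6.89).
The windows of 2 thresholded intergenic peaks, chr9:44998211-44998410 near the 3′ end of Cd3e and chr9:45015007-45015206 upstream of it, are printed on the plus strand of GRCm38 with motif matches in capitals, because their motif content differs.
Near the 3′ end of Cd3e: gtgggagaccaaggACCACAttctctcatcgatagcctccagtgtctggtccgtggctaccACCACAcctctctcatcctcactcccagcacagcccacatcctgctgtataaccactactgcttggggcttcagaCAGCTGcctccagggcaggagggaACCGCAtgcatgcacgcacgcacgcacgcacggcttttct
Upstream of Cd3e: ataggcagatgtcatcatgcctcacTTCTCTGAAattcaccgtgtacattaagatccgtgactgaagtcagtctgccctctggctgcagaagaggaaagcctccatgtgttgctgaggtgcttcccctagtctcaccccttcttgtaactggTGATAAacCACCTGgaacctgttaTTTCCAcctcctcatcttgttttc

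Of the 14 peaks around the cluster, 8 were nearest to a start of a CD3 gene among protein-coding genes, 4 of them to Cd3e, 3 to Cd3d and 1 to Cd3g. Starts inside the genes were allowed, and the choice of peaks by distance to these genes in part sets the count. The other 6 belonged by distance to the neighbours Ube4a, a ubiquitin chain assembly factor, and Atp5l, a subunit of ATP synthase, and to the adhesion genes Mpzl2 and Mpzl3. The peak at the start of Ube4a (44965244 to 44965902) had a signal of 15.7 and a −log10 p of 226. A peak in intron 2 of Ube4a (44954373 to 44954852) had a signal of 17.1, nearly that of Cd3g, on a −log10 p of only 76.8. Mpzl3 had a start peak of signal 11.8, and Mpzl2 had none in the thresholded list and a weak one (9.39) in the pseudoreplicated list. The remaining peaks there had signals of 9.68 at the start of Atp5l, 7.998 at 1366 bp before the start of Ube4a (44966803 to 44967135) and 10.85 in intron 4 of Mpzl2 (45048614 to 45048864). Which gene a distal peak acts on was not tested.

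Cd247 had peaks along its first intron, up to +60.5 kb. The gene spans 88.6 kb, of which intron 1 of the principal transcript takes up 66.3 kb. All 10 thresholded peaks inside the gene had their strongest summit in that intron. Exons 2 to 8 and introns 2 to 7 held 0 thresholded summits. The peaks in intron 1 had signals of 4.86 to 9.83 (median 6.57), all below the 11.4 at the start of the gene, and −log10 p values of 41.0 to 212 (median 94.3). Distances here are from the start of the principal transcript. The highest signal in the intron was at +27.9 kb (165816323 to 165816918, signal 9.83, −log10 p 114). The peaks at +55.9 kb (165844225 to 165844892, signal 6.46, −log10 p 165) and at +60.5 kb (165848825 to 165849352, signal 4.86, −log10 p 94.9) lie within 1 kb of starts of Gm32999 and Gm37469, genes not annotated as protein-coding. Just inside the gene, at +1.44 kb (165789397 to 165790399), the signal was 6.68. Another 5 peaks of the intron had signals of 7.80 at +13.2 kb, 6.34 at +14.7 kb, 6.11 at +24.3 kb, 5.87 at +40.2 kb and 8.64 at +49.1 kb.
The window of the peak with the highest signal in intron 1, chr1:165816444-165816643 at +27.9 kb, is printed on the plus strand of GRCm38 with motif matches in capitals.
Cd247 +27.9 kb: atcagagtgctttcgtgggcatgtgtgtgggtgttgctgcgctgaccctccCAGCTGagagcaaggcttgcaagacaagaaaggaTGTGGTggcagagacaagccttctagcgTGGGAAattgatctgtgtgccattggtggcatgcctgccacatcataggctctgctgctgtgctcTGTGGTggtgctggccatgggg

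The window at +27.9 kb held 2 RUNX matches, 1 E protein match and 1 Ikaros match.

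**Figure D2:**
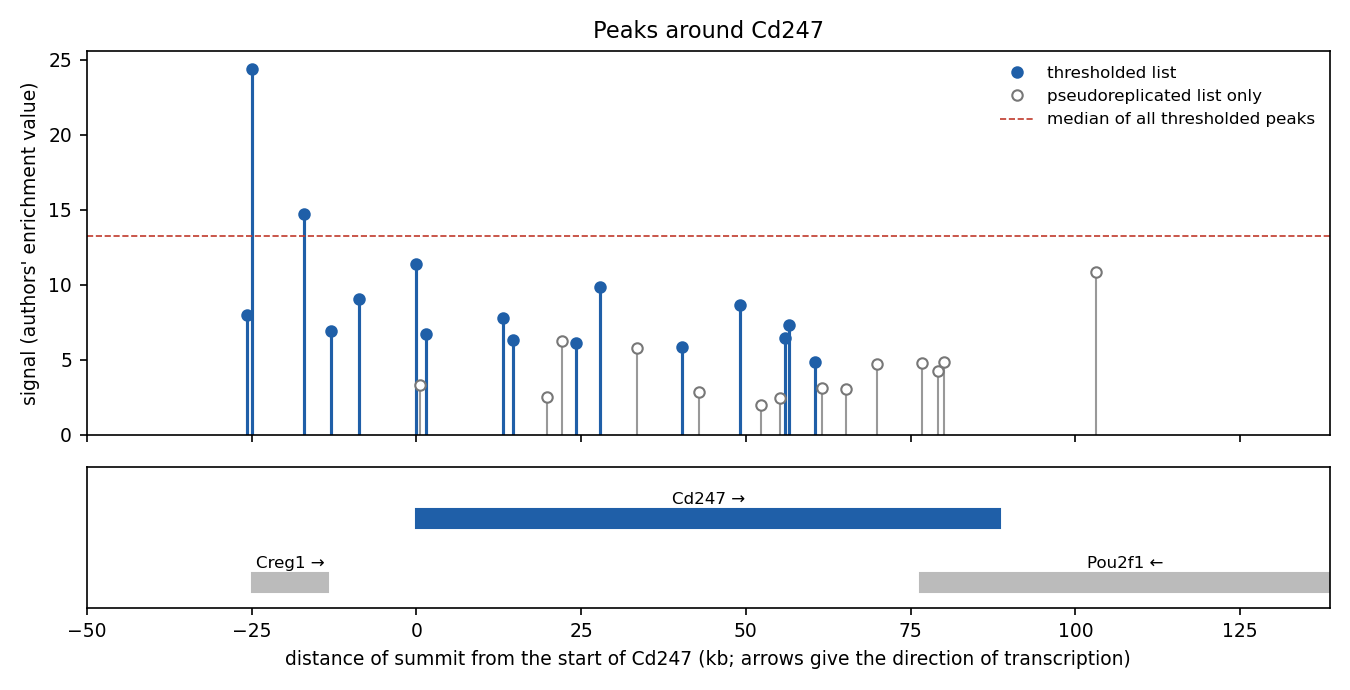
Signal of each peak (vertical axis, the authors' enrichment value) against the distance of its summit from the start of Cd247 in kb, with gene bodies below. Filled points are thresholded peaks and open points those of the pseudoreplicated list only. The filled points inside the gene, at 4.86 to 9.83, end at +60.5 kb, and open points go on to the 3′ end.

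Upstream of Cd247, 6 thresholded peaks lay between the promoter and the edge of the stretch, with signals of 6.89 to 24.4, if the promoter peak itself, whose summit lies before the 5′ end, is counted among them. The peak of 24.4 (165763304 to 165764461, −log10 p 738) was that of the neighbour Creg1, a glycoprotein of the endolysosome. Intron 3 of Creg1 held a peak (165771516 to 165772043) with a signal of 14.7. A wide peak at −8.65 kb (165779883 to 165781381) had 5 summits and a signal of 9.04. The other 2 upstream peaks had signals of 7.97 (165762937 to 165763205, near the start of Creg1) and 6.89 (165775621 to 165775888). In all, 12 of the 16 peaks were nearest to a start of Cd247 among protein-coding genes, with starts inside the gene allowed. Peaks were chosen by their distance to the gene, so this count follows in part from that choice. Downstream of Cd247 the thresholded list was empty to the edge of the stretch, a region taken up by the 3′ part of Pou2f1, which encodes the transcription factor OCT-1. The pseudoreplicated list held 13 more peaks inside Cd247, in introns 1 and 5 and in the 3′ part that overlaps Pou2f1, and 1 downstream in exon 13 of Pou2f1 (165891700 to 165892024, signal 10.85). The 14 peaks it added in the stretch had −log10 p values of 8.52 to 46.3.

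The edges of the stretches fell near strong peaks in 1 case. On the low side of the Cd247 stretch the nearest summit inside lay 24.4 kb from the edge (signal 7.97) and the nearest outside 2.36 kb from it (165735874 to 165736639, −log10 p 195), with a signal of 30.01. On its high side the nearest lay 78.1 kb inside and 74.0 kb outside. Around the cluster, the nearest summits inside lay 1.39 and 4.26 kb from the edges (signals 9.68 and 11.8) and the nearest outside 36.8 and 3.26 kb away (signals 4.75 and 8.35).

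Both stretches held more peaks per kb than most genes do. The cluster had 9.996 peaks per 100 kb and Cd247 had 8.48, against a median of 2.48 for protein-coding genes with the same flanks. Of the 21938 genes, 2.92% had at least the density of the cluster and 6.15% at least that of Cd247. Peaks covered 5.72% of the cluster stretch and 5.92% of the Cd247 stretch, against 0.918% of the whole chromosomes. The chromosomes include regions far from genes, and coverage for other genes with the same flanks is not given here. Restricted to peaks with at least the median −log10 p of the list, the cluster stood above 76.9% and Cd247 above 80.7% of genes, against 97.1% and 93.9% with all thresholded peaks.

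Other genes of the pathway were open at their starts as well. Of 20 genes of the receptor's proximal signalling, 20 had a promoter peak and 18 one at the 5′ end. The shares of all protein-coding genes were 52.6% and 48.6%. The members had a median signal of 13.4 at the 5′ end, the proximal signalling genes 11.1 and all open protein-coding genes 17.2. The medians of −log10 p were 274, 269.6 and 327. The 5 highest signals at the 5′ end in the pathway list were at Lat (22.3), Tespa1 (21.3), Grap2 (18.5), Nck1 (17.9) and Zap70 (14.9). Lat encodes the adaptor that ZAP-70 phosphorylates, and Tespa1 is needed for receptor signalling in thymocytes. Grap2 encodes an adaptor that joins LAT to SLP-76, Nck1 another adaptor and Zap70 the kinase that docks on the phosphorylated tails. The genes named next were picked after their values were seen. At the 5′ end, Lck, whose kinase phosphorylates the tails, had 7.36. There, Cd4 (4.56) and the adhesion receptor gene Cd2 (4.08) were about as low as Cd3d (4.14). With every annotated TSS allowed, the promoter peak was stronger at Lck (14.2), Cd2 (8.95) and Cd3d (13.7), and at Cd4 it was the same. Csk (9.24) and Cd28 (15.6) had a promoter peak only at an internal start. The median density was 10.6 peaks per 100 kb for the members, each with its own 50 kb flanks, and 7.21 for the pathway list. The 3 cluster genes share most of these peaks.

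**Figure D3:**
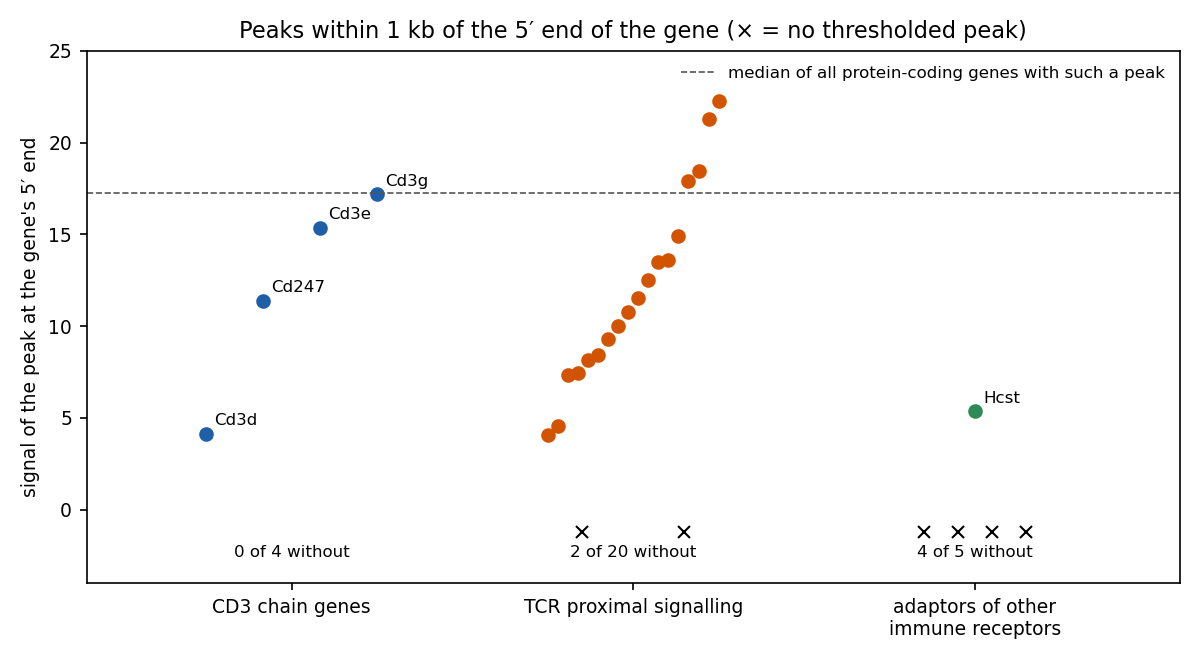
Signal of the peak within 1 kb of the 5′ end (vertical axis, the authors' enrichment value) for each gene of 3 lists, ordered by signal within a list. Crosses below 0 mark genes without a thresholded peak there and carry no value. The CD3 chain genes run from 4.14 (Cd3d) to 17.2 (Cd3g), and the dashed line is the median of all protein-coding genes with such a peak, 17.2.

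Chains that do the corresponding work for other immune receptors mostly had no called peak at their starts. Of 5 such genes, 1 had a promoter peak (20%), against 52.6% of all protein-coding genes. It was Hcst, the DAP10 adaptor gene (signal 5.36, −log10 p 106). Fcer1g, the Fc receptor gamma chain, which can stand in for zeta in some lymphocytes, Tyrobp, the DAP12 adaptor gene of NK and myeloid cells, and the B cell receptor chain genes Cd79a and Cd79b had none. In the pseudoreplicated list Cd79b had a weak one (4.59), which made 2 of 5, against 57.7% of all protein-coding genes. Each of the 5 genes with its 50 kb flanks still held 4 to 10 thresholded peaks.

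Member peaks had low signal for their −log10 p. Peaks of the list whose −log10 p lay within 10% of a given peak's were used as its like. Of the 30 member peaks, 24 (80%) had less signal than the median of their like, 10 of 14 around the cluster and 14 of 16 around Cd247. Over all thresholded peaks the share was 49.8%, close to the even split that a median sets. At the start of Cd3d the signal was 4.14, against a median of 10.2 over 2474 peaks of like −log10 p. In the last exon of Cd3d it was 13.7, against 19.1. Member peaks had 7 to 15 other peaks within 50 kb (median 11), against a median of 4 over all peaks. Over all peaks the share with low signal for their −log10 p was 25.5% with 0 or 1 neighbours, 44.6% with 2 to 5, 66.7% with 6 to 10 and 87.1% with more than 10. The part that neighbouring peaks play in the low signal of the members was not tested.

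**Figure D4:**
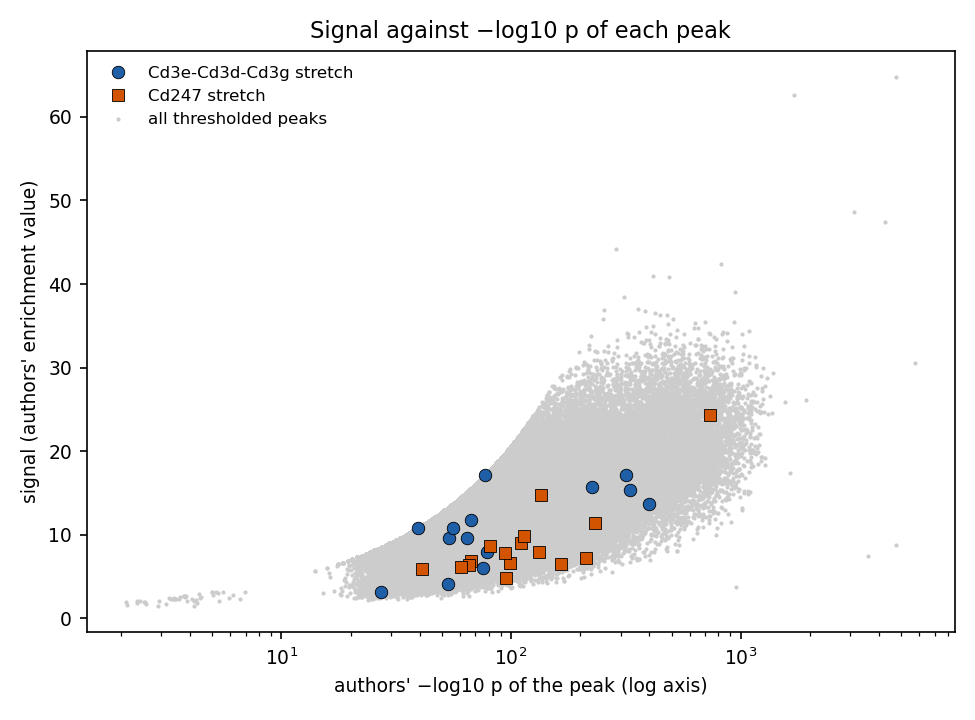
Signal (vertical axis, the authors' enrichment value) against the authors' −log10 p (horizontal log axis) for each thresholded peak. Circles are the 14 peaks around the cluster, squares the 16 around Cd247 and grey points all 34610 peaks. Most member peaks lie in the lower part of the cloud at their −log10 p, and the square at a signal of 24.4 is the start of Creg1.

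The motif content of the member windows was compared with that of all thresholded windows for 13 motifs. The E protein motif, the E-box variant read by E2A and HEB, which drive T cell development, was in 16 of 30 windows (53.3%), against 26.0% of all thresholded windows. It was in 7 of 14 promoter windows and 9 of 16 distal ones, against 22.6% and 28.2% of all peaks of each kind. For this split, unlike the overlap rule above, a promoter window had its strongest summit within 1 kb of an annotated TSS. The TSS could be of any gene, so starts of neighbours and of genes not annotated as protein-coding are included. With windows of 400 bp the shares were 63.3% and 42.7%, with every summit 43.6% and 25.6%, and with the pseudoreplicated list 50% and 26.3%. RUNX was in 8 windows (26.7%, against 24.9%), ETS in 6 (20%, against 18.3%) and NFAT in 8 (26.7%, against 14.3%). KLF/SP, read by general promoter factors, was in 8 (26.7%, against 36.8%). NF-kB was in 0 of 30, against 0.974% of all windows. AP-1 (TGANTCA) was in 5 (16.7%, against 9.62%), GATA in 6 (20%, against 12.9%), STAT in 4 (13.3%, against 6.08%), Ikaros in 3 (10%, against 13.0%), TCF/LEF in 2 (6.67%, against 7.74%), forkhead (GTAAACA or ATAAACA) in 2 (6.67%, against 5.86%) and CTCF in 1 (3.33%, against 6.14%). The sign of the difference depended on the windows for 5 of the motifs. With windows of 400 bp the members' share was the lower for ETS (20%, against 21.8%) and forkhead (10%, against 11.9%). With every summit it was the higher for Ikaros (14.5%, against 13.4%) and TCF/LEF (10.9%, against 6.85%) and the lower for forkhead (5.45%, against 5.53%). With the pseudoreplicated list it was the lower for RUNX (22.9%, against 25.3%) and forkhead (6.25%, against 6.37%) and the higher for TCF/LEF (8.33%, against 8.26%). STAT was in 7.27% of the member windows with every summit, against 5.50% of all, and in 8.33% with the pseudoreplicated list, against 6.38%. Some differences kept their sign but nearly vanished. KLF/SP stood at 50%, against 50.3%, with windows of 400 bp and at 31.25%, against 32.1%, with the pseudoreplicated list. GATA stood at 26.7%, against 25.8%, with windows of 400 bp, and CTCF at 6.25%, against 6.27%, with the pseudoreplicated list. In the other settings the differences of KLF/SP, GATA and CTCF were larger. Each motif is a short word read on both strands, the windows number 30 and neighbouring windows share a locus, so the shares are given as a description. Some matches overlap, as GATA and forkhead do at +49.1 kb in Cd247 and RUNX and KLF/SP in intron 3 of Creg1.

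**Figure D5:**
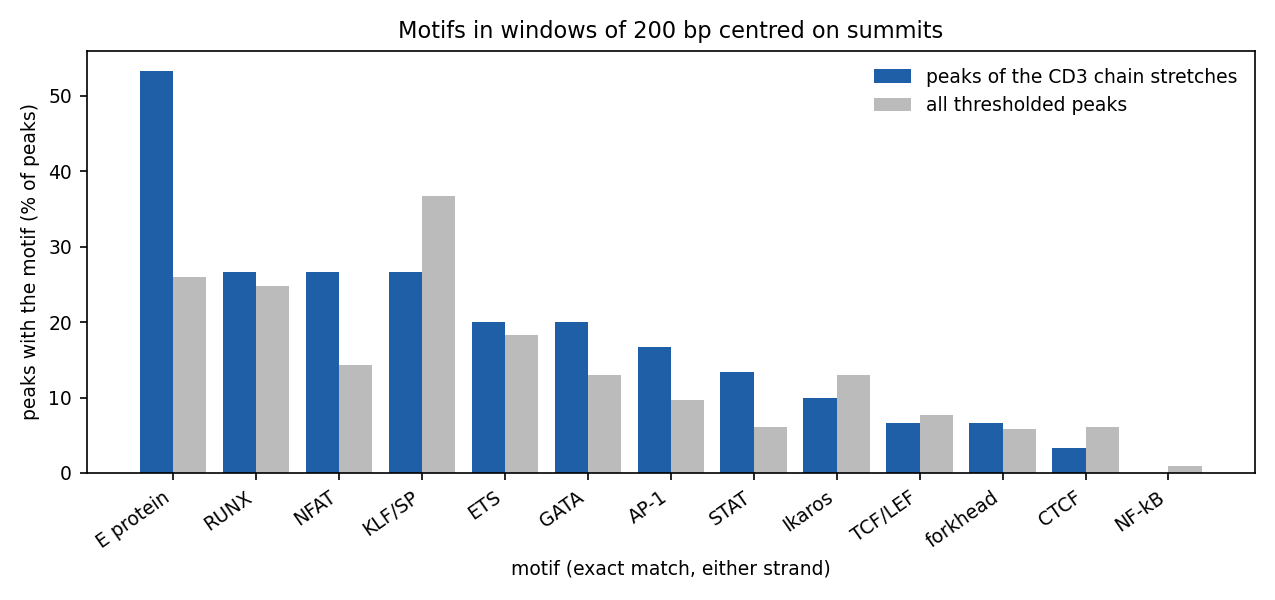
Share of peaks with an exact match on either strand (vertical axis, % of peaks) for 13 motifs, in windows of 200 bp centred on summits. Blue bars are the 30 member peaks and grey bars all 34610 thresholded peaks. The E protein bars stand at 53.3% and 26.0%.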

How the data were processed

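ATAC-seq peak lists of regulatory T cells were used. Per the deposited file listings, the 3 lists derive from 1 alignment on mm10 that both libraries share. The deposited lists give for each peak a signal value, the authors' enrichment, and a −log10 p, and the deposited ranked list adds a score, the −log10 of the global IDR, and the −log10 p in 2 inputs whose origin is not stated. Which aligner and caller were used, and whether reads were shifted to the insertion site, is not given in the sources used here. Depth is unknown, and no interval or floor was given.

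A peak listed on several lines, 1 per summit, was kept once, with its strongest summit. Coordinates count from 1. The sequence and single values of 1 member peak are not reported here. Genes came from GENCODE M21 on chromosomes 1 to 19, X and Y of GRCm38, within whose lengths all peaks lay. A promoter peak overlapped (by at least 1 bp) 1 kb on either side of an annotated TSS. Densities count summits per 100 kb of gene plus flanks. Motifs were exact words in windows of 200 bp centred on summits. Python 3.11.15 with pandas 2.3.3 and NumPy 2.4.6 was used.

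The members and gene lists were chosen with earlier results of these data known. Genes named are the members, their neighbours and up to 5 genes of each list by list order or highest signal, with exceptions marked. Peaks are not replicates, so no test was run and no p-value was computed. On simulated data, 500 of 500 summit counts and 500 of 500 overlaps equalled a direct search, and 3250 of 3250 planted motifs were found. Alternatives used the pseudoreplicated list, other flanks, promoter windows and motif windows, every summit, and peaks of at least the median signal or −log10 p.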

Additional observations from a re-analysis of the deposited data

How the results depend on the processing

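All 4 members kept a promoter peak with the pseudoreplicated list, with windows of 500 and 2500 bp, with 5′ ends only and on raising the −log10 p to the list's median. In that order, the shares of all protein-coding genes with one were 57.7%, 51.7%, 54.5%, 48.6% and 44.7%. Raising the signal to its median instead, Cd247 lost its peak, which left 3, against 39.2% of protein-coding genes. At both of these cuts Cd3d was kept by the peak in its last exon (signal 13.7, −log10 p 401), not by the peak at its start. With 5′ ends and the median signal together, a choice made after seeing the data, 2 were left, Cd3g and Cd3e, against 35.7%. With 5′ ends and the median −log10 p, likewise chosen later, Cd3d dropped out and 3 were left, against 41.1%. The 14 peaks around the cluster became 25 with every line counted, 5 with at least the median signal and 4 with at least the median −log10 p. The 16 around Cd247 became 30 with the pseudoreplicated list, 26 with flanks of 100 kb, 30 with every line counted, 2 with at least the median signal and 6 with at least the median −log10 p. The share of genes with a lower density than the cluster, 97.1%, was 94.7% with the pseudoreplicated list, 98.3% with flanks of 20 kb, 97.4% with flanks of 100 kb and 76.9% with at least the median −log10 p. For Cd247 it was 93.9%, and 98.3%, 95.05%, 97.9% and 80.7% with the same changes. Windows with an ETS or RUNX motif numbered 12 of 30 (40%, against 38.9% of all windows), 23 of 55 (41.8%, against 31.8%) with every summit, 17 of 30 (56.7%, against 50.9%) with windows of 400 bp and 16 of 48 (33.3%, against 37.3%) with the pseudoreplicated list, where the sign of the difference turned. A cut at the list's median keeps 17305 of the 34610 peaks by construction, so lower counts follow from it. The counts left of the 14 and 16 peaks, 5 and 2 by signal and 4 and 6 by −log10 p, lay below an even split. The causes of this and of the other moves were not tested. No paired analysis was possible because the pooled lists hold no value per library, and for the same reason no library could be left out.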
